A study of Caenorhabditis elegans with 2 samples.

Results

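Translation initiation and elongation factor genes of the nematode Caenorhabditis elegans were examined for ChIP-seq peaks of a tagged forkhead transcription factor. Chromatin immunoprecipitation followed by sequencing (ChIP-seq) recovers DNA bound by a chosen protein, and peaks are the places where recovered fragments pile up. The genes were chosen by name only: nuclear protein-coding genes whose name begins with eif-, iff-, ife-, ifg-, eef-, eftu- or eftn-, together with inf-1, egl-45 and clu-1. This gave 43 of 19973 nuclear protein-coding genes, and the 19930 others served as background. Both libraries came from late embryos, as whole animals of pooled sex, of strain OP337, labelled as carrying fkh-10 fused to TY1, EGFP and FLAG tags with an unc119 rescue marker in an unc119(ed3) background (insertion wgIs377). The antibody is labelled only as fkh-10. There was 1 group of 2 biological replicates, with no untagged strain and no second condition. The labels do not say which cells of the embryo carry the tagged protein, and a library of peaks holds no expression markers by which stage or cells could be checked. A gene was scored by the highest peak whose summit lay from 1000 bp upstream to 500 bp downstream of its 5' end. Read depth is unknown, because the files used here hold peaks without read counts.

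Translation begins when initiation factors place the small ribosomal subunit, loaded with the initiator tRNA, at a start codon of a messenger RNA. In eukaryotes eIF4 proteins recognise the cap and unwind the messenger, eIF2 brings the initiator tRNA, eIF2B recharges eIF2, and the multi-subunit eIF3 holds the complex together. Elongation factors then deliver each aminoacyl-tRNA and move the ribosome along. All growing cells need these proteins, and their genes are regarded as housekeeping genes.

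The sequences under the peaks are shown first, because the immunoprecipitated protein belongs to a family with a known recognition core. Forkhead proteins bind cores such as GTAAACA, and 4 versions were searched on both strands (the consensus GTAAACA, then the variants GTAAATA, next ATAAACA, and last ATAAATA). Within 100 bp of the summit in the list called on both replicates together, any of the 4 occurred in 6 of the 15 translation factor windows (40%), against 423 of 2309 windows of 201 bp at other protein-coding genes (18.3%). GTAAACA itself occurred in 1 of 15 windows (6.67%), that of eef-1A.2, against 2.51% of the others. The summit at eef-1A.2, of height 16.3, was close to the lowest height of that list (16.2). The nearest summits of replicates 1 and 2 lay 222 and 100 bp from it. The 6 windows follow, read 5' to 3' along each gene's sense strand on ce11, with the core or its reverse complement in capitals. Bases in exons were left out, which shortened the window of iff-2 to 163 bases. They lie at chrII:8561368-8561530 for iff-2 (minus strand), chrIII:6929734-6929934 for inf-1 (plus), chrX:382799-382999 for ife-2 (minus), chrIV:4810327-4810527 for eif-1.A (plus), chrIII:9521827-9522027 for clu-1 (minus) and chrX:7823166-7823366 for eef-1A.2 (plus).
iff-2: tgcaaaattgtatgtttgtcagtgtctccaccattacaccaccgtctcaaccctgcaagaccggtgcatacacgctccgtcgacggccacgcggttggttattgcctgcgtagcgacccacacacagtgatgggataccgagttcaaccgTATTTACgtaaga
inf-1: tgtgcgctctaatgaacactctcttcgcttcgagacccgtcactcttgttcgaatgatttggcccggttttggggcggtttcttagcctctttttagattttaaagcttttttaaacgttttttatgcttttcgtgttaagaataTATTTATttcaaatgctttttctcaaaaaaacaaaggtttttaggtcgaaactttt
ife-2: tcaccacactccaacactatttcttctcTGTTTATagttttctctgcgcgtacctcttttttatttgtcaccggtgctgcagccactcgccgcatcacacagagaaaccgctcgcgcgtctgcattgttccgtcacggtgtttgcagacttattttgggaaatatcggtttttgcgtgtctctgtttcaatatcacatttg
eif-1.A: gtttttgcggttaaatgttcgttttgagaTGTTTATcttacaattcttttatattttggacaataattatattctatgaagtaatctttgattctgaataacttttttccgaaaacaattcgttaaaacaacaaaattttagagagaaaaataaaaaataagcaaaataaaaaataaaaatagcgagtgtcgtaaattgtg
clu-1: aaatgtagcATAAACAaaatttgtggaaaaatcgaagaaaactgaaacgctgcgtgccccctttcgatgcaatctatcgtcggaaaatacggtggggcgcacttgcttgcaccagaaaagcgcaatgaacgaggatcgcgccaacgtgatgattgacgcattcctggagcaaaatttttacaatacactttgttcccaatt
eef-1A.2: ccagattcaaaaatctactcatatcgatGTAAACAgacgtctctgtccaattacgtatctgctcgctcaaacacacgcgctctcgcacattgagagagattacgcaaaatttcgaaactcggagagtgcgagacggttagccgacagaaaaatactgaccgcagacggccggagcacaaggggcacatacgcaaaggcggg
Each window held 1 core, and its centre lay 48 to 88 bp from the summit. Of these 6 genes, only iff-2 and eif-1.A had summits of both single replicates within 100 bp of that summit. At ife-2 and clu-1 replicate 1 had no summit in the gene's scoring window. In promoters taken from 250 bp before to 50 bp after the 5' end, GTAAACA was found at 0 of 43 translation factor genes and at 4.78% of other genes, and any of the 4 cores at 19 (44.2%) and 33.9%. The splice-acceptor-like word TTTTCAG, searched the same way, was in 17 promoters (39.5%, against 31.9%) and in 5 of the 15 summit windows (33.3%, against 18.3%). A match of these letters is a description of the window and not a binding site.

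A run of 15 bases was shared by the windows of eef-1A.2 and eef-1G, which encode 2 parts of the machinery that delivers aminoacyl-tRNA to the ribosome. It was the longest run shared by any of the 105 pairs of translation factor windows, for which the median was 8 bases and the next longest 12. The 2 stretches are shown on their sense strands, both plus, with the run in capitals, at chrX:7823314-7823388 for eef-1A.2 and chrV:10965681-10965725 for eef-1G.
eef-1A.2: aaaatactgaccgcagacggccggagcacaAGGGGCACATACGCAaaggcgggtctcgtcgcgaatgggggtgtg
eef-1G: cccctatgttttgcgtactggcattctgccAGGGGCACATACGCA
The run begins 310 bp upstream of the 5' end of eef-1A.2. At eef-1G it spans the annotated 5' end, from 8 bp upstream to 6 bp downstream. On either strand it occurred at 5 places in the nuclear genome and in 2 of 7420 nuclear windows of the pooled list, those shown. Of the other 3 places, 2 lay 330 and 373 bp upstream of icd-1, the gene of the beta subunit of the nascent polypeptide-associated complex, which binds new chains at the ribosome. The last lay 4104 bp from the nearest protein-coding 5' end. The run was picked after the windows had been compared, and no test was made of it.

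Among the 378 peaks of the thresholded list, 2 translation factor genes had a summit in their window, iff-2 and eif-3.C (4.65% of 43, against 0.968% of other genes). In the longer pooled list of 7443 peaks, called on both replicates together without that threshold, 15 of 43 had one (34.9%), against 13.2% of other genes. In the list of replicate 1, 24 genes had a summit (55.8%, against 39.6%), and in that of replicate 2, 30 had one (69.8%, against 39.9%). Both replicate lists held a summit at 18 of the genes (41.9%, against 19.9%). The summits of the 2 replicates need not mark the same place in the window: they lay 4 bp apart at iff-2 and 620 bp apart at eif-3.I. No summit in any of the 4 lists lay at 7 of the genes (16.3%, against 40.2%). With genes without a summit counted as 0, the median height over the 43 genes was 0 in the thresholded and pooled lists, 7.34 in replicate 1 and 7.23 in replicate 2, and that over other genes was 0 in all 4; a median above 0 restates that most of the 43 had a summit in that list. Heights are in the authors' units, whose scale is not given, and are compared only within a list. The lowest height was 7.25 in the replicate 1 list and 4.85 in the replicate 2 list.

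**Figure D1:**
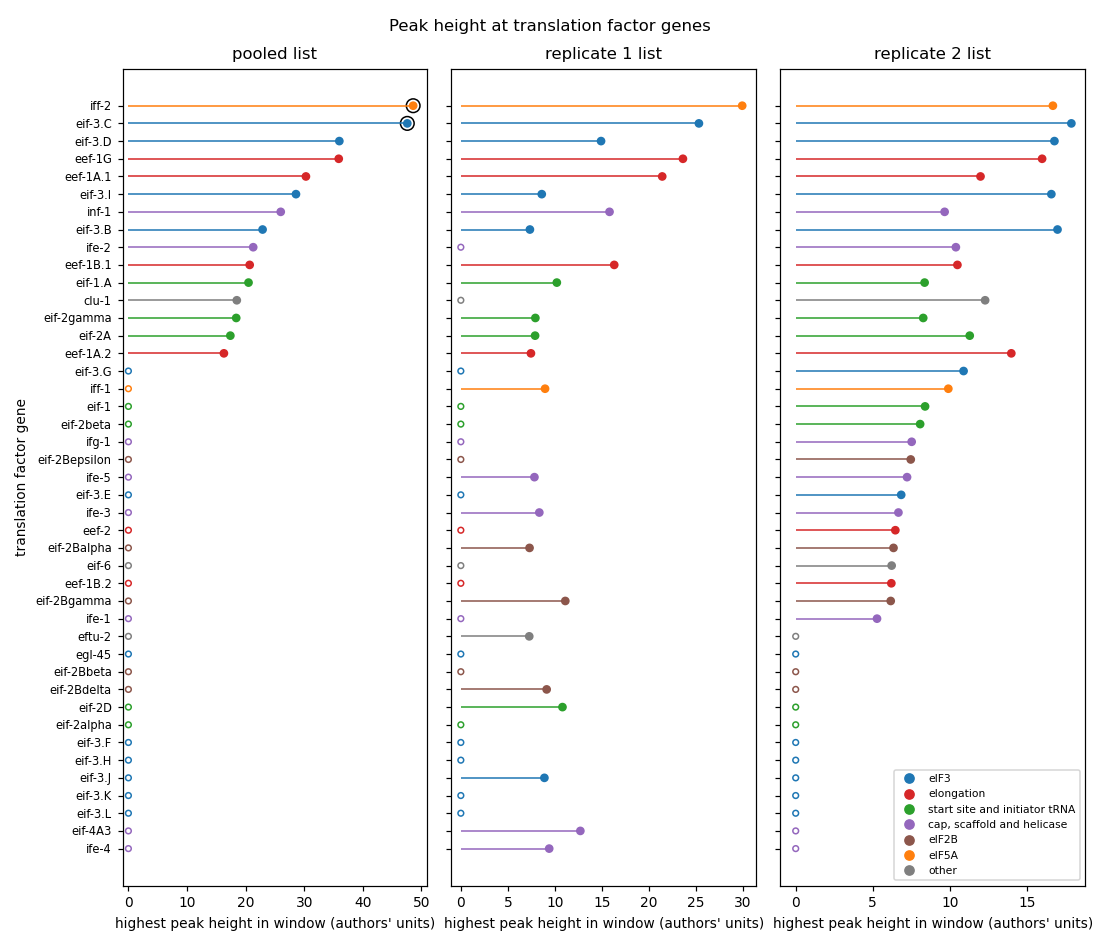
Height of the highest peak (x axis, authors' units) with its summit in the window of each of the 43 genes (y axis), in the pooled list and in the list of each replicate, coloured by role. Open points at 0 are genes without a summit, and the 2 ringed points are iff-2 and eif-3.C, which also stand in the thresholded list.

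The 2 replicates gave unequal counts when only their strongest peaks were taken. Among the 378 strongest peaks of replicate 1, 3 genes had a summit (6.98%, against 0.883% of other genes), namely iff-2, eif-3.C and eef-1G. Among the 378 strongest of replicate 2 there were 0 (against 0.883%), and with 43 genes a count of 0 is close to that share. The highest of the 43 in replicate 2, eif-3.C, stood at rank 475. With 7443 peaks taken from each replicate, the order was the other way round: 8 genes had a summit in replicate 1 (18.6%, against 13%) and 15 in replicate 2 (34.9%, against 12.5%). A summit among the 7443 strongest of both replicates was found at 7 genes (16.3%, against 3.93%). In replicate 1 the share was 9.3% at 1000 peaks (against 2.26%), 16.3% at 3000 (against 5.89%) and 27.9% at 15000 (against 24.1%), so at each of these lengths it was above that of other genes, and of them the gap was smallest at 15000. In replicate 2 it was 14% at 1000 (against 2.2%), 23.3% at 3000 (against 5.44%) and 53.5% at 15000 (against 22.7%), and it was 0 at 378 peaks and fewer. The pooled list is not independent of the replicate lists, since it was called on the same reads.

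**Figure D2:**
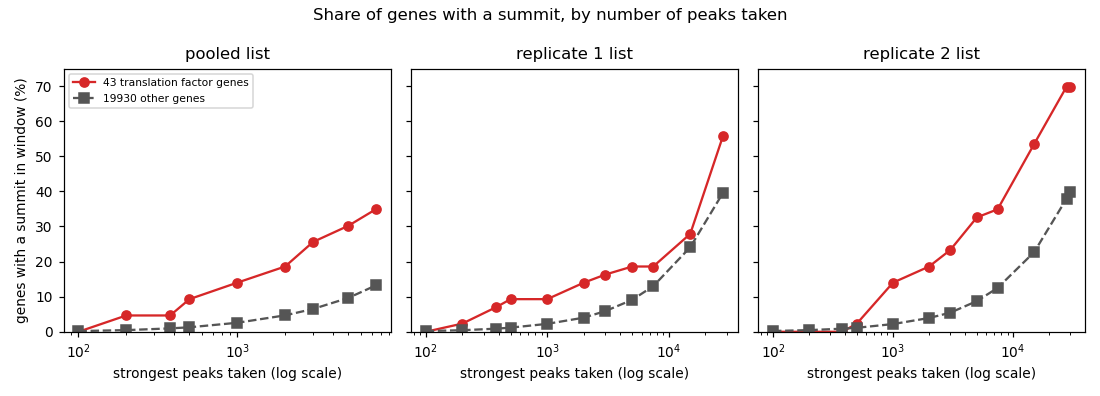
Share of genes with a summit in the window (y axis, percent) when the strongest peaks of a list are taken (x axis, number of peaks, log scale), for the 43 translation factor genes and 19930 other genes. The translation factor line lies above the other from 200 peaks on in the pooled list and in replicate 1, where the gap narrows to 27.9% against 24.1% at 15000, and from 500 peaks on in replicate 2, where it is at 0 up to 378.

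Of the 2 eIF5A genes, iff-2 had the highest pooled peak of all 43 genes and iff-1 had none. eIF5A helps the ribosome through difficult stretches and carries the modified amino acid hypusine; in the worm iff-2 is the form of the soma and iff-1 that of the germline. The peak at iff-2 (WBGene00002065, chromosome II, 8559375 to 8561367, minus strand) had its summit at 8561430, 63 bp upstream of the 5' end, with a height of 48.6 in the pooled list, rank 164 of 7443. Its height was 29.9 in replicate 1 (rank 150 of 27900) and 16.7 in replicate 2 (rank 614 of 30000). The 2 replicate summits lay 4 bp apart, the closest of the 15 genes, and outside any exon. At iff-1 the pooled list held no summit. The replicate lists held summits there, with a height of 8.95 in replicate 1 (rank 17081) and 9.91 in replicate 2 (rank 4714). They lay 51 and 122 bp from the 5' end of cdk-1, a gene facing the other way. From that of iff-1 they lay farther, at 330 and 157 bp, and could belong to either. In each replicate iff-1 stood below iff-2. That difference was not tested.

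eIF3 has the most genes here, and their values spread widely. A pooled summit lay at 4 of 12 (33.3%, against 13.2% of other genes), eif-3.C, eif-3.D, eif-3.I and eif-3.B. No summit in any list lay at 5 of 12, close to the 40.2% of other genes, namely egl-45 (which encodes the largest subunit, eIF3a), eif-3.F, eif-3.H, eif-3.K and eif-3.L. The peak at eif-3.C had a height of 47.6 in the pooled list (rank 173), 25.3 in replicate 1 (rank 243) and 17.9 in replicate 2 (rank 475). Its summit lay 230 bp upstream of the 5' end and 3577 bp from the nearest 5' end of another protein-coding gene. The same-strand gene sys-1 ends 400 bp upstream of eif-3.C. At eif-3.D the height was 36 in the pooled list, rank 400, just below the lowest height of the thresholded list (36.6). Replicate 1 gave 14.9 there (rank 2405) and replicate 2 gave 16.8 (rank 610). This summit lay 252 bp upstream of eif-3.D but only 62 bp from the 5' end of R08D7.4, a gene facing the other way, and could belong to either. The peaks at eif-3.I and eif-3.B ranked higher in replicate 2 than in replicate 1. At eif-3.I the height was 28.6 in the pooled list (139 bp upstream) and 16.6 in replicate 2 (rank 622), whereas the only replicate 1 summit in the window, 746 bp upstream, had a height of 8.6 (rank 19010). At eif-3.B the height was 22.9 in the pooled list (178 bp upstream), 7.34 in replicate 1 (rank 27199) and 17 in replicate 2 (rank 580). Of the remaining subunits, eif-3.G (10.9) and eif-3.E (6.85) had a summit in replicate 2 alone, and eif-3.J (8.88) in replicate 1 alone.

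All 6 elongation factor genes had a summit in replicate 2 (against 39.9% of other genes), and 4 of them also in replicate 1 (66.7%, against 39.6%) and the pooled list (66.7%, against 13.2%). The highest was at eef-1G, a subunit of the complex that recharges eEF1A with GTP, with a height of 35.9 in the pooled list (rank 404), also just under the thresholded list. It had 23.6 in replicate 1 (rank 331) and 16 in replicate 2 (rank 698). The pooled and replicate 1 summits lay 22 bp inside the gene, in its first exon, and the replicate 2 summit 158 bp inside. The 2 genes of eEF1A, the carrier of aminoacyl-tRNA, both had pooled summits, with a better rank in replicate 1 at the first and in replicate 2 at the second. At eef-1A.1, also called eft-3, the height was 30.3 in the pooled list (rank 670), 21.4 in replicate 1 (rank 472) and 12 in replicate 2 (rank 2230). Its pooled summit lay 382 bp upstream, 9 bp from the miRNA gene mir-5549 and 159 bp from the 5' end of the divergent gene rfc-4. The replicate 2 summit of height 12 lay 20 bp from the 5' end of rfc-4 and 521 bp upstream of eef-1A.1. A lower replicate 2 summit, of height 6.16, lay 454 bp inside eef-1A.1. At eef-1A.2 the height was 16.3 in the pooled list (rank 7221), 7.45 in replicate 1 (rank 26402) and 14 in replicate 2 (rank 1172). The high replicate 2 summit at eef-1A.2 lay 288 bp upstream and the low replicate 1 summit 610 bp upstream, so they mark different places. At eef-1B.1, another subunit of the exchange complex, the pooled summit lay 160 bp inside the gene with a height of 20.7, and replicates 1 and 2 gave 16.3 and 10.5. The genes eef-2, whose product moves the ribosome by a codon, and eef-1B.2 had heights of 6.47 and 6.21 in replicate 2 alone. The summit at eef-2 lay in an exon, 579 bp upstream of eef-2 and nearer to the 5' end of clsp-1 (314 bp).

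Among the factors of the cap and the messenger, 2 of 8 genes had a pooled summit (25%, against 13.2% of other genes), which is about 1 gene more than that share gives. At inf-1, the gene of the helicase eIF4A, the height was 26 in the pooled list (300 bp upstream, rank 1107), 15.8 in replicate 1 (rank 1780) and 9.67 in replicate 2 (rank 5146). At ife-2, one of the eIF4E genes for cap binding, it was 21.3 in the pooled list (190 bp upstream, rank 2455) and 10.4 in replicate 2 (rank 3861). Replicate 1 had no summit in the window of ife-2, and its nearest one lay 4872 bp from the pooled summit. The other cap-binding genes, ife-1, ife-3, ife-4 and ife-5, had no pooled summit. In replicate 1 the highest peak was 8.34 at ife-3, 9.39 at ife-4 and 7.82 at ife-5, with none at ife-1. In replicate 2 it was 5.28 at ife-1, 6.67 at ife-3 and 7.23 at ife-5, with none at ife-4. The scaffold gene ifg-1 (eIF4G) had a height of 7.53 in replicate 2 alone. That summit lay 959 bp upstream of ifg-1 and nearer to the 5' end of M110.3 (353 bp). The helicase gene eif-4A3, whose product is known for the exon junction complex and not for initiation, had 12.7 in replicate 1 alone, the highest value of that list among genes without a pooled summit.

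Among the genes of start-site selection and initiator tRNA delivery, a pooled summit lay at 3 of 7 (42.9%, against 13.2% of other genes): at eif-1.A, which encodes eIF1A (20.5), at eif-2gamma, the GTPase subunit of eIF2 (18.4), and at eif-2A, a separate factor that binds initiator tRNA (17.4). Replicate 1 gave 10.2, 7.92 and 7.89 at these genes, and replicate 2 gave 8.37, 8.28 and 11.3. The summit at eif-1.A lay 507 bp upstream, nearer to H06H21.37 (453 bp), and that at eif-2gamma lay 295 bp inside the gene. The remaining eIF2 subunits had no pooled summit, with 8.08 at eif-2beta in replicate 2 alone and no summit in any list at eif-2alpha. The alpha subunit is the one phosphorylated in the integrated stress response. Summits at eif-1 (8.40, replicate 2) and eif-2D (10.8, replicate 1) were seen in a single replicate, each nearer to another gene. That at eif-1 lay 438 bp upstream, in an exon, and 20 bp from the 5' end of vps-24. That at eif-2D lay 257 bp upstream and 111 bp from the 5' end of ndub-5.

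Of the 5 eIF2B genes, 0 had a pooled summit (against 13.2% of other genes) and 1, eif-2Bbeta, had none in any list (against 40.2%), each within about 1 gene of what those shares give. In replicate 1 the heights were 11.1 at eif-2Bgamma (rank 8760), 9.12 at eif-2Bdelta and 7.30 at eif-2Balpha. The value at eif-2Balpha (rank 27510) was close to the lowest height of that list (7.25). In replicate 2 they were 7.47 at eif-2Bepsilon, 6.35 at eif-2Balpha and 6.17 at eif-2Bgamma. The 60S-binding factor gene eif-6 had 6.23 in replicate 2 alone, 536 bp upstream and nearer to the 5' end of pbs-2 (130 bp). A replicate 2 summit of height 6.17 lay 303 bp inside eif-6. The nearest pooled summit to eif-6 lay 538 bp from its 5' end, just outside the window. Also among the 43 was eftu-2, a GTPase of the spliceosome, with 7.27 in replicate 1 alone (rank 27738), close to that lowest height too. Another was clu-1, related to proteins of mitochondrial distribution, with 18.5 in the pooled list and 12.3 in replicate 2. No replicate 1 summit lay in the window of clu-1, and its pooled summit was 148 bp from the divergent splicing factor gene prp-40, nearer than to clu-1 (467 bp).

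Pooled summits at the 15 genes lay mostly just upstream of the 5' end. They were upstream at 12 genes (80%), with a median position of -190 bp, and at other genes with a pooled summit 77.6% were upstream with a median of -249 bp. The distance ran from 22 to 507 bp and was at most 400 bp at 13 genes. At 4 genes (eif-3.D, eef-1A.1, eif-1.A and clu-1) another protein-coding 5' end was nearer. None of the 15 lay within 100 bp of a tRNA, snoRNA or snRNA gene; the closest to one was that of iff-2, 658 bp from the snoRNA gene F54C9.12. The share of G and C within 100 bp of the summit had a median of 40.8% and ranged from 23.4% at eif-1.A to 49.8% at eef-1A.2, against a median of 38.8% at 2309 summits of other genes. A replicate 1 summit lay within 100 bp of the pooled one at 9 of the 15 (60%, against 77.5% at other genes), a replicate 2 summit at 10 (66.7%, against 64.9%), and both at 5 (33.3%, against 46.6%). Those 5 were iff-2, eif-3.C, eif-3.D, eif-3.B and eif-1.A.

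**Figure D3:**
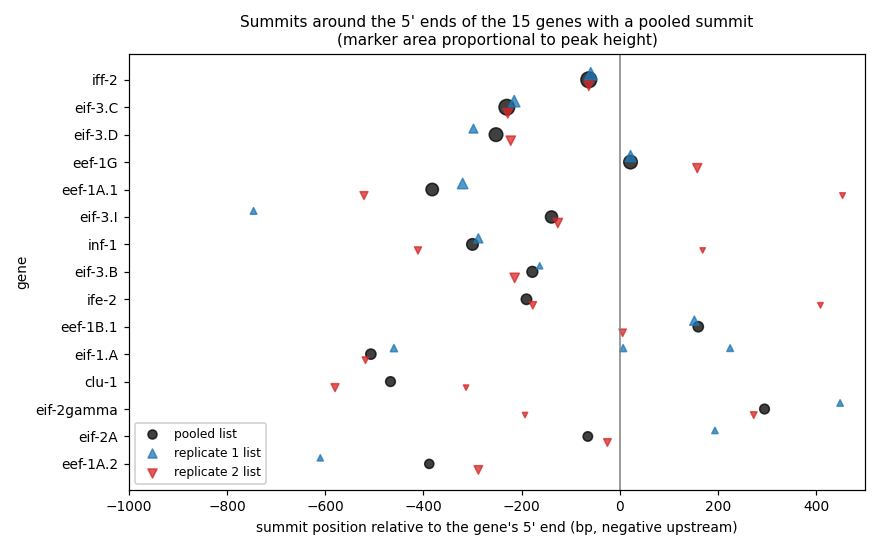
Summit positions relative to the 5' end of each of the 15 genes with a pooled summit (x axis, bp, negative values upstream), ordered by pooled height (y axis), with marker area proportional to height. At iff-2 the 3 lists fall within 4 bp of each other, whereas at eif-3.I and eef-1A.2 the replicate 1 summit lies 620 and 322 bp from that of replicate 2.

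Other genes of translation, taken as lists by name, held pooled summits at unequal rates. They were found at 48 of 81 cytoplasmic ribosomal protein genes (59.3%), at 24 of 70 mitochondrial ribosomal protein genes (34.3%) and at 8 of 13 further genes chosen by name (61.5%). Those 8 include erfa-1 (20.1) and erfa-3 (33.7), the genes of the release factors that end translation, pab-1 (17.7) and pab-2 (30.7) for poly(A)-binding proteins, and pek-1 (20.3) and gcn-2 (25.3) for kinases that phosphorylate eIF2alpha. A pooled summit lay at 3 of 32 aminoacyl-tRNA synthetase genes (9.38%), close to what the 13.2% of genes outside the translation factors gives. By far the highest of the 3 was at ears-2 (76.5). In replicate 1 the synthetases stood at 28.1% (against 39.6%) and in replicate 2 at 50% (against 39.9%). The translation factors, at 34.9%, lay between the synthetases and the cytoplasmic ribosomal proteins in the pooled list and in both replicates. Mitochondrial ribosomal proteins were close to the translation factors in the pooled list (34.3%) and in replicate 1 (54.3%, against 55.8%). In replicate 2 they stood lower (58.6%, against 69.8%). Differences between these lists were not tested.

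**Figure D4:**
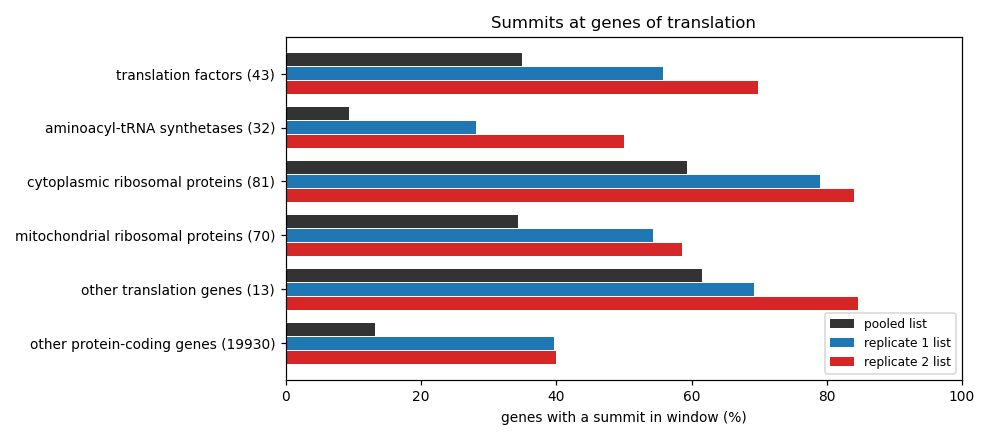
Share of genes with a summit in the window (x axis, percent) for the translation factors, 4 other lists of translation genes and all genes outside the translation factors, in the pooled list and in each replicate, with the number of genes in brackets. Bars are shares without an error estimate; cytoplasmic ribosomal proteins reach 59.3% in the pooled list and synthetases 9.38%.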

How the data were processed

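Per the deposited file lists, the authors aligned 2 biological replicates and a control. They called relaxed peaks for each replicate and for both together, and thresholded these by the irreproducible discovery rate (IDR). The aligner, caller and thresholds were not given in the sources used here. Labels give fragments of 150 to 350 bp. Each deposited peak has a signal, the height as the authors gave it, and a summit offset in bp, deposited in another column. All 378 thresholded peaks rank above every other pooled peak. The ce11 lists were used, ce10 lists were not, and 0 peaks passed a chromosome end of WBcel235. Genes came from Ensembl release 115, the 5' end being the outermost base, and sequence from RefSeq's WBcel235. Summits are 1-based.

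Members and lists were chosen with earlier results of these data known, so shares are described beside the background, with no test. Named are all genes with a thresholded or pooled summit, the highest of each role, the paralogs, and genes with no summit; the others are named to account for every gene. The scoring was checked on planted summits. Other windows, gene models, peak subsets and single replicates were tried. Python 3.11.15, numpy 2.4.6, pandas 2.3.3 and matplotlib 3.10.9 were used.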

Additional observations from a re-analysis of the deposited data

How the results depend on the processing

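Over 38 alternative counts across the 4 lists, 33 stayed within 1.5 times the reported count, and the share of translation factor genes was above that of other genes in 37. The exception was the thresholded count with replicate 2 alone, where 0 of 43 stood against 0.883% of other genes. In single replicates, with as many of the strongest peaks, the thresholded count of 2 ran from 0 (replicate 2 alone) to 3 (replicate 1 alone), and the pooled count of 15 from 8 (replicate 1 alone) to 15. Among replicate 1 peaks at or above their median height the count fell from 24 to 11 (25.6%, against 22.7%). With 7443 peaks, a length chosen after seeing the data, the replicate 1 list gave 8 and the replicate 2 list 15. These repeat the single-replicate counts set against the pooled count, so they enter the 38 again. The 38 are therefore not independent of each other. Fewer peaks allow fewer genes. With 1 gene per summit the pooled count was 11 (25.6%, against 10.9%). From 2000 bp upstream the thresholded count was 3, through a summit 1999 bp from eif-6 and 152 bp from tba-2. The window of 500 bp to either side kept 14 of the 15 pooled genes, all with the same height, and dropped eif-1.A. Depth is unknown, so absence from a list is not absence of binding. No paired analysis was possible because the series holds 1 group.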

Other observations

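Many translation factor genes had a gene facing away from them close by. A protein-coding 5' end on the opposite strand lay within 1000 bp upstream at 23 of 43 (53.5%), against 17.6% of other genes. Among other genes, 20.5% of those so arranged and 11.7% of the rest had a pooled summit. Among translation factor genes the shares were 34.8% (8 of 23) and 35% (7 of 20). At 4 of these 8 genes the pooled summit lay nearer to the 5' end of the opposite-strand gene. At all 7 without such a neighbour it lay nearer to the translation factor gene than to any other. That is largely set by how these 7 were defined, with no opposite-strand 5' end within 1000 bp upstream. The largest distance of a pooled summit from the 5' end of its translation factor gene was 507 bp. The shares of other genes were counted in the same way, without leaving out summits nearer to another gene. Whether summits that could belong to either gene account for the near-equal shares was not tested. A same-strand neighbour ending within 500 bp upstream, the arrangement found inside worm operons, preceded 7 of 43 (16.3%, against 18.1%), of which 2 had a pooled summit (28.6%, against 36.1% of the remaining translation factor genes and 11.1% of other genes so arranged). These arrangements were chosen after seeing the data and were not tested.

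By chromosome, pooled summits lay at 3 of 12 translation factor genes on I, 3 of 12 on II, 5 of 10 on III, 1 of 2 on IV, 1 of 4 on V and 2 of 3 on X. The shares of other genes were 16.9%, 12%, 17%, 12.7%, 9.5% and 14.7%. At icd-1, which has the 15-base run at 2 places upstream, the pooled list held a summit of height 17.4, replicate 1 one of 10.4 and replicate 2 one of 5.81. The pooled summit lay 200 bp from the copy of the run closer to it.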
